A study of Mus musculus with 9 samples.

Results

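RAB proteins are the largest branch of the Ras superfamily of small GTPases, and their transcripts were followed here in mouse microglia, the resident macrophages of the brain, at 7, 30 and 90 days after a traumatic brain injury. Members were every gene whose symbol consists of Rab, a number and at most 1 letter with a further number, at a level of at least 1 CPM (reads counted to a gene, scaled so that each library sums to 1000000) in at least 3 of the 9 libraries. The table listed 59 such symbols and 54 passed, among 15041 genes that passed the same filter of 49671 listed. Below the filter were Rab17, Rab25, Rab27b, Rab33a and Rab44. Rab27b was the nearest of these, with a third-highest value of 0.628 CPM, and the nearest members inside were Rab19 at 1.31, Rab42 at 1.52 and Rab26 at 1.61 CPM.

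All 9 libraries came from injured male C57BL/6 mice that carry the CD45.2 form of the leukocyte surface protein CD45. At 8 weeks of age the mice were irradiated with the head shielded, given busulfan and transplanted with marrow of CD45.1 donors of the strain B6.SJL-Ptprca Pepcb/BoyJ. At 16 weeks they received a controlled cortical impact, a piston strike to the exposed cortex, and CD45.2 microglia were sorted 7, 30 or 90 days later from 3 mice a day, with 1 library a mouse. The CD45.2 sort leaves out cells of donor marrow but not host blood cells that outlived the ablation. Uninjured mice were not analysed here, so every comparison is between times after injury. The age of the mice and the time since irradiation, busulfan and transplant rose with the day after injury and cannot be told apart from it.

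RAB proteins switch between a GTP-bound form, which sits on a membrane and recruits effectors, and a GDP-bound form, which is carried in the cytosol by GDP dissociation inhibitors. Each works on particular membranes: RAB5 proteins on early endosomes, RAB7 proteins on late endosomes and lysosomes, RAB11 proteins on recycling endosomes, RAB1, RAB2 and RAB6 proteins between the endoplasmic reticulum (ER) and the Golgi, and RAB3, RAB8, RAB10 and RAB27 proteins on carriers bound for the cell surface. In microglia these routes carry engulfed debris to lysosomes, return receptors to the surface and release cytokines and proteases. By these roles the 54 members fell into 27 endolysosomal RABs (13 early and recycling, 14 late endosomal, lysosomal or autophagic), 22 Golgi and secretory RABs (11 of ER and Golgi, 11 secretory) and 5 others.

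A RAB holds to its membrane by lipid chains that are added to cysteines at its end, and the coding ends of the members the results turn on are shown because they carry this signature. The lines give the last 30 coding bases with the stop codon, on the coding strand of GENCODE M21 transcripts, and capitals mark the cysteine codons.
Rab7: aaggcctccgcagaaagcTGCagtTGTtga
Rab7b: ccaggccagccaaagagcagaTGCTGCtga
Rab32: acaacaaagcccaggtcccagTGCTGCtga
Rab38: gtcagcTGCtctggcTGTgccaaatcctag
Rab6a: ccagtcaatgaaggcggcTGTtccTGCtaa
Rab6b: ccggccagcgagggcggcTGCtccTGTtaa
Rab5c: gccagccggagccagTGCTGCagcaactga
Rab14: caaccccagagagaaggcTGTggcTGCtag
Rab8a: accagcttcttccggTGCagtctcctgtga
All 54 members had at least 1 cysteine codon among the last 4 codons. In 15, such as Rab7b and Rab32, a pair of cysteine codons stood directly before the stop, in 18, such as Rab7, Rab6a and Rab6b, 1 other codon lay between them, and 21 ended otherwise. Paralogs were well apart in coding sequence: Rab7 and Rab7b shared 62.4% of aligned bases, Rab32 and Rab38 shared 68.6%, Rab5a and Rab5c shared 74.0%, and Rab6a and Rab6b shared 78.5%.

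Reads counted to genes numbered 7210985 to 12965926 a library, so that 3 reads were worth 0.231 to 0.416 CPM. All 10 microglial markers, P2ry12, Tmem119 and Cx3cr1 among them, were read in every library. Day 90 replicate 1 differed most from the rest, at 126.6 on the first principal component (21.2% of the variance) against -22.9 to -3.13 for the other 8, and it held the fewest genes with a read, 14039. Its 14 endothelial and pericyte markers summed to 5036 CPM, against 1771 to 4157 CPM in the others. Values below are means ± SD over the 3 libraries of a day, and where libraries are listed they are in the order of replicates 2, 3 and 4 at days 7 and 30 and of replicates 1, 3 and 4 at day 90. Differences between days are on the log2(CPM + 1) scale, which understates those of low genes, with their standard error (SE) and Benjamini-Hochberg adjusted p from limma, fitted to all 15041 genes.

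RAB transcripts made up 3600.2 ± 144 CPM of each library at day 7, 3639.9 ± 200.1 at day 30 and 3384 ± 66.9 at day 90. The libraries were 3-prime tag libraries, which read the end of each transcript, so CPM were not divided by length and levels are compared between genes on the CPM scale only. The 3 highest members gave 33.8% of the family's mean CPM and the 12 highest 69.7%. Rab14, which works between early endosomes and the Golgi, averaged 435 CPM over the 9 libraries, Rab5c, an organizer of early endosome fusion, averaged 427 CPM, and Rab7, which drives fusion of late endosomes with lysosomes, averaged 335 CPM. At the other end, 17 members averaged under 10 CPM, the lowest being Rab26, a RAB of secretory granules, at 0.738 CPM.

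**Figure D1:**
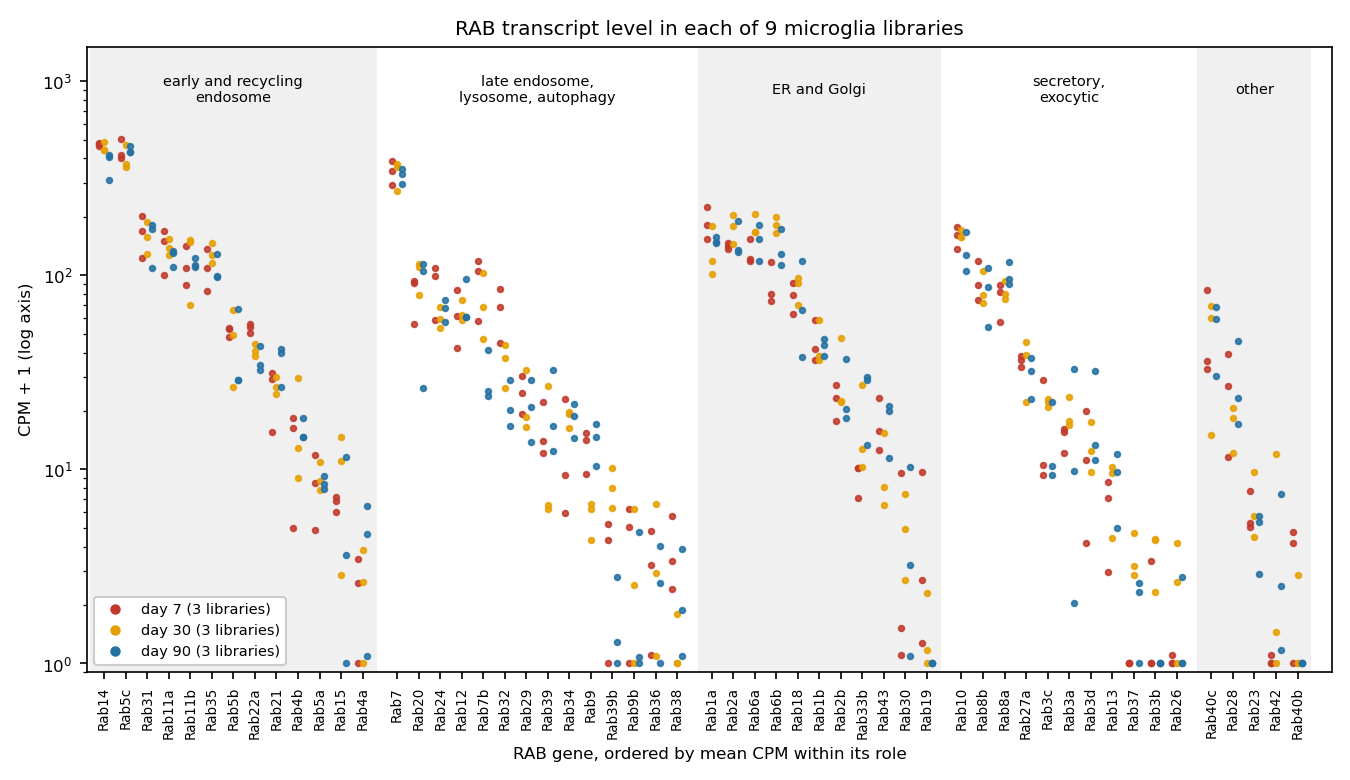
Level of each of the 54 RAB genes in each library, as CPM + 1 on a log axis, with genes grouped by role and ordered by mean CPM; each point is 1 library, coloured by day. Rab14, Rab5c and Rab7 stand above the rest, and among genes over 10 CPM the day 90 points of Rab7b, Rab32, Rab14 and Rab22a lie below their day 7 points.

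A single member passed the test between day 7 and day 90. Rab7b, a RAB of late endosomes that in macrophages has been tied to the breakdown of Toll-like receptors, fell by 1.62 on the log2 scale. No member passed between day 7 and day 30 or between day 30 and day 90, and the differences of the 12 members that averaged at least 100 CPM lay between -0.52 and 1.04 in every comparison. The members named below are those called, those with the smallest p, the RAB3, RAB5, RAB6 and RAB7 paralogs with Rab32 and Rab38, and the highest of each role, while Rab8a, Rab20, Rab21, Rab22a, Rab24, Rab26, Rab29, Rab40b and Rab42 were named after their values were seen.

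Among the late endosomal and lysosomal RABs, Rab7b (chromosome 1, 131688695 to 131715439, mm10) stood at 105, 56.9 and 117 CPM in the day 7 libraries. It stood at 45.8, 102 and 67.4 CPM at day 30, and at 22.7, 24.5 and 40.0 CPM at day 90. All 3 day 90 libraries lay below every earlier library, while days 7 and 30 overlapped. The means were 92.9 ± 31.8, 71.7 ± 28.2 and 29.1 ± 9.50 CPM. The difference of day 90 from day 7 was -1.62 ± 0.35 (SE), with an adjusted p of 0.0253 from limma, the 28th smallest p of 15041 genes. Called genes made up 0.246% of all genes in this comparison, 37 genes, of which 31 (0.206% of all) were lower and 6 (0.0399%) higher.

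The Rab7b call did not hold under every setting. Its log2 difference stayed between -1.94 and -1.42 over 19 alternatives, while the adjusted p ran from 0.00664 to 0.514 and was under 0.05 in 11 of them. The call was lost with edgeR on whole reads (adjusted p = 0.0850), with a pseudocount of 0.1 CPM (0.0573 from limma) and without a filter on low values (0.514 from limma). In limma the adjusted p was 0.266 when replicate 2 of day 7 was left out and 0.277 when replicate 4 of day 7 was. It was 0.131 on leaving out replicate 3 of day 90 and 0.0522 on leaving out replicate 4 of day 30. Without day 90 replicate 1, the library most unlike the rest, the difference was -1.47 with an adjusted p of 0.0417 from limma. Against day 30, day 90 was at -1.24 ± 0.35 (limma adjusted p = 0.621, the 27th smallest p), and day 30 was at -0.38 ± 0.35 against day 7 (adjusted p = 0.918).

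Rab32 (chromosome 10, 10545002 to 10558265), which serves lysosome-related organelles and host defence in macrophages, had a like order of days. Its levels were 67.4, 44.0 and 83.5 CPM at day 7, 25.2, 42.9 and 36.4 CPM at day 30, and 15.8, 19.2 and 27.7 CPM at day 90. Every day 7 library lay above every later one, by a margin of about 1 CPM against day 30, and days 30 and 90 overlapped. Day 90 differed from day 7 by -1.58 ± 0.39 (SE), and this missed the threshold in limma (adjusted p = 0.0920). DESeq2 on whole reads called it (adjusted p = 0.0161), edgeR did not, and the adjusted p over 19 alternatives ran from 0.0161 to 0.422. Rab38, its closest paralog and a partner in melanosome formation, was near the limit of reading at 2.85 ± 1.74, 0.263 ± 0.455 and 1.29 ± 1.43 CPM. It made up 4.46%, 0.708% and 5.08% of the summed CPM of the pair at days 7, 30 and 90, so nearly all reads of the pair were those of Rab32.

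Rab7, the general RAB of late endosomes, showed none of this. It stood at 292, 387 and 345 CPM at day 7, at 362, 272 and 371 CPM at day 30, and at 295, 353 and 333 CPM at day 90. The 3 days overlapped, and the day 90 difference from day 7 was -0.06 with a 95% interval of -0.47 to 0.36. Rab7b accordingly made up 21.5 ± 7.56% of the CPM of Rab7 and Rab7b together at day 7, 17.9 ± 8.31% at day 30 and 8.12 ± 2.29% at day 90. The day 90 shares, 6.48% to 10.7%, lay below all earlier ones. Rab29, which acts on lysosomes with the kinase LRRK2, starts 152 kb from the end of Rab7b and stood at 23.7 ± 5.49, 21.6 ± 8.75 and 20.2 ± 7.57 CPM.

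**Figure D2:**
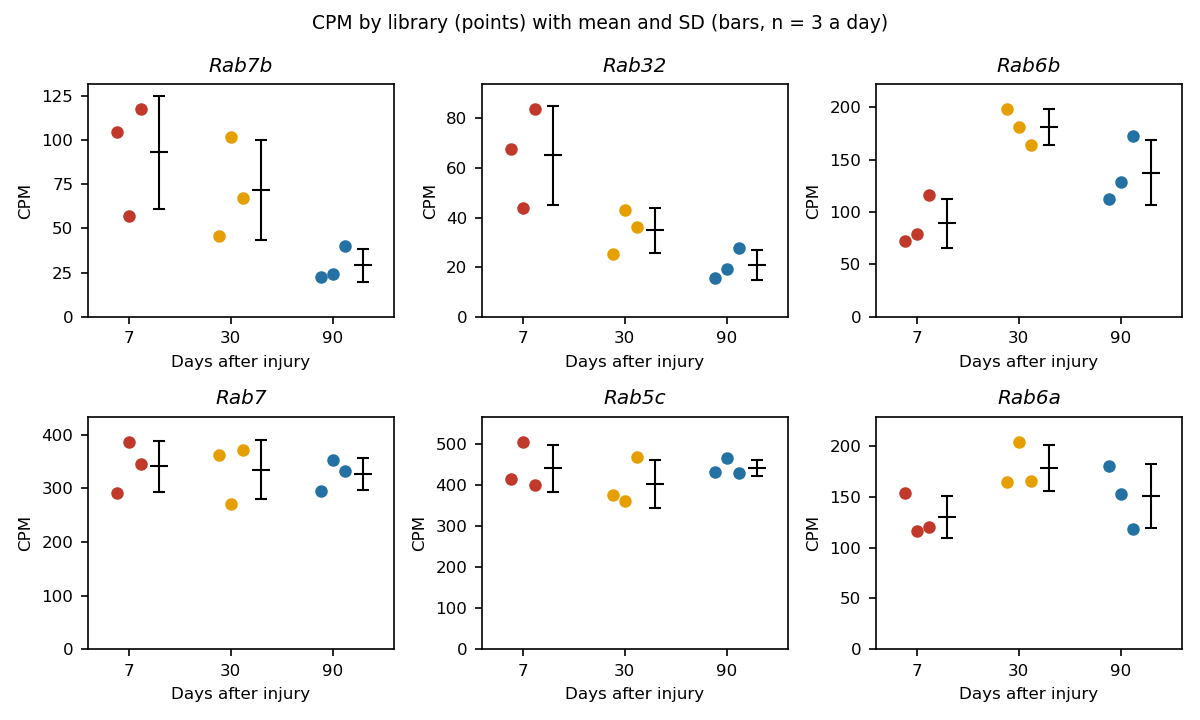
CPM of 6 RAB genes in each library (points) by day after injury, with mean and SD of the 3 libraries of a day (bars). Rab7b and Rab32 are lowest at day 90 and Rab6b has its highest mean at day 30, while Rab7 and Rab5c overlap between days.

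None of the remaining late members passed the test in any comparison. Rab20, a RAB of maturing phagosomes, stood at 25.3 CPM in day 90 replicate 1 against 113 and 104 CPM in the other two day 90 libraries. Rab24, linked to autophagy, averaged 88.1, 59.6 and 65.6 CPM at days 7, 30 and 90 (day 30 against day 7, -0.51 ± 0.30, limma adjusted p = 0.827). Rab9, which returns mannose 6-phosphate receptors from late endosomes to the Golgi, was at 12.0 ± 3.15, 4.74 ± 1.25 and 13.1 ± 3.41 CPM, with the day 30 libraries below all others. Its difference of day 90 from day 30, 1.29 ± 0.69, had a limma adjusted p of 0.955. Rab39b, a RAB best known in neurons, was at 2.52 ± 2.23, 7.17 ± 1.94 and 0.687 ± 0.954 CPM, with a day 90 difference from day 30 of -2.39 ± 0.90 (adjusted p = 0.893). The 14 late members summed to 802 ± 21.1, 734 ± 36.3 and 669.7 ± 71.5 CPM at days 7, 30 and 90, and without Rab7b and Rab32 to 644 ± 68.7, 628 ± 52.5 and 619.7 ± 63.3 CPM.

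Marker lists of other states and cells also differed between days. The 12 markers of disease-associated microglia, a phagocytic, lipid-handling state marked by Spp1, Gpnmb and Lpl, summed to 5736 to 6753 CPM at day 7, 4569.8 to 5592 CPM at day 30 and 1434 to 3108 CPM at day 90. All 12 were lower at day 90 than at day 7 and 9 of them were called in limma. Over all genes 51.6% were lower and 0.206% were called lower. The list was chosen with earlier results of these data known. Blood monocyte markers summed to 7.96 to 66.3 CPM at day 7, 8.25 to 30.5 CPM at day 30 and 0.892 to 22.2 CPM at day 90, with F10 at 0 in all day 90 libraries. Neutrophil markers summed to 68.7 to 245 CPM at day 7, 4.39 to 67.9 CPM at day 30 and 1.52 to 82.3 CPM at day 90, with Mpo and Elane at 0 in every library. Day 7 replicate 3 had the highest monocyte and neutrophil sums, 66.3 and 245 CPM, and the lowest Rab7b and Rab32 of that day. The same library had the lowest microglial marker sum of all 9, 13057 CPM, and the fewest reads, 7210985. Its endothelial and pericyte sum, 4157 CPM, was the highest of day 7. The part of these cells and states in the RAB values was not tested, and in bulk libraries fewer cells of a type and less RNA per cell cannot be told apart.

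The 13 early and recycling endosome RABs summed to 1589.6 ± 66.9, 1551 ± 137 and 1457 ± 27.4 CPM, and none passed the test in any comparison. Rab5c gave 414, 505 and 399.99 CPM at day 7, 375, 361 and 468 CPM at day 30, and 430.3, 464 and 429 CPM at day 90. The days overlapped throughout, and the day 90 difference from day 7 was 0.01 with an interval of -0.39 to 0.41. Rab5c made up 88.3 ± 1.81%, 88.0 ± 4.75% and 90.2 ± 4.07% of the CPM of the 3 RAB5 paralogs. Rab5b stood at 50.3 ± 3.01, 46.4 ± 19.9 and 40.6 ± 21.8 CPM and Rab5a at 7.42 ± 3.50, 8.15 ± 1.55 and 7.52 ± 0.631 CPM.

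Rab14, the most abundant RAB, stood at 481, 465 and 473 CPM at day 7, 443, 441 and 483 CPM at day 30, and 416, 309.6 and 403 CPM at day 90. The day 90 libraries lay below all earlier ones, but the difference from day 7 was -0.34 ± 0.19 with a limma adjusted p of 0.705. Rab22a, which sorts cargo from early endosomes, was at 52.6 ± 2.69, 40.0 ± 2.82 and 35.9 ± 5.76 CPM. Its later libraries all lay below those of day 7 (day 90 against day 7, -0.55 ± 0.34, limma adjusted p = 0.732).

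Of the ER and Golgi RABs, Rab6b had the smallest p. Rab6b (chromosome 9, 103111787 to 103185276) is the brain-rich paralog of Rab6a, and both steer vesicles that leave the Golgi. Its levels were 72.7, 79.3 and 116 CPM at day 7, 198, 181 and 164 CPM at day 30, and 112, 128 and 173 CPM at day 90. All 3 day 30 libraries lay above all day 7 libraries, and the day 90 libraries overlapped both. Day 30 differed from day 7 by 1.04 ± 0.25 (SE), the 8th smallest p of 15041 genes, but its adjusted p in limma was 0.362. No gene passed in this comparison in limma or edgeR, while 939 had an unadjusted p under 0.05 in limma and DESeq2 called 34. Over 19 alternatives the difference lay between 0.91 and 1.24 with adjusted p of 0.0637 to 0.827, and DESeq2's test over the 3 days called Rab6b (adjusted p = 0.0344). Day 90 against day 7 was at 0.62 ± 0.25 (limma adjusted p = 0.497).

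Rab6a gave 154, 117 and 120.2 CPM at day 7, 165, 205 and 166 CPM at day 30, and 181, 153 and 118 CPM at day 90. Its day 30 libraries also lay above those of day 7, with a difference of 0.46 ± 0.24 (limma adjusted p = 0.803). Rab6b made up 40.6 ± 8.46% of the pair's CPM at day 7, 50.4 ± 3.80% at day 30 and 47.7 ± 10.7% at day 90, and these shares overlapped between days. The 16 neuronal markers summed to 1163 to 1345 CPM at day 7, 1618 to 3189 CPM at day 30 and 1019.7 to 1867 CPM at day 90. Against day 7, 15 of them were higher at day 30 (median difference 0.66, none called), and their part in the Rab6b, Rab39b and Rab3a values was not tested.

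Rab1a, the highest of the ER and Golgi RABs on average and the carrier of traffic from the ER to the Golgi, gave 225, 153 and 181 CPM at day 7, 100.3, 178 and 117 CPM at day 30 and 156, 147 and 145 CPM at day 90. The days overlapped, and the day 30 difference from day 7 was -0.52 ± 0.24 (limma adjusted p = 0.793). Rab33b, a Golgi RAB that binds the autophagy protein Atg16l1, gave 6.10, 9.15 and 9.10 CPM at day 7, 11.7, 9.24 and 26.1 CPM at day 30 and 27.9, 28.9 and 12.3 CPM at day 90. Every later library lay above those of day 7, and the day 90 difference from day 7 was 1.33 ± 0.61 (limma adjusted p = 0.601). Rab19 had 106 reads at day 7, mostly in replicate 2 (8.65 CPM), 17 reads at day 30 and 0 at day 90. Taking 3 reads over the group as the floor, it was at least 41.8-fold lower at day 90 than at day 7 on read shares, while its limma adjusted p was 0.649.

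Among the secretory RABs, Rab10, which brings vesicles to the plasma membrane, was highest at 157 ± 20.7, 161 ± 7.43 and 132 ± 31.1 CPM. Rab8a, which acts on the same route, was at 75.3 ± 16.3, 82.1 ± 8.85 and 100.3 ± 14.2 CPM, and its day 90 libraries lay above those of day 7 (0.43 ± 0.27, limma adjusted p = 0.741). The RAB3 proteins, which prime vesicles for regulated release and are best known from nerve terminals, were all low. Rab3a gave 15.1, 11.1 and 14.6 CPM at day 7, 15.96, 22.6 and 16.8 CPM at day 30, and 8.83, 1.04 and 32.1 CPM at day 90. The day 30 libraries lay just above those of day 7, and the day 90 libraries spread beyond both. In the same libraries the neuronal markers summed to 1163, 1292 and 1345 CPM at day 7 and 1618, 2160 and 3189 CPM at day 30. At day 90 they summed to 1019.7, 1208 and 1867 CPM, and their part in the Rab3a values was not tested. Rab3c averaged 15.2 ± 10.8, 21.1 ± 1.03 and 12.97 ± 7.09 CPM and Rab3d 10.8 ± 7.97, 12.2 ± 3.98 and 17.8 ± 11.4 CPM.

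A few RABs had no read on a whole day. Rab3b and Rab37 passed the filter on low values only through the day 30 libraries in which they were high. Rab38 passed only through its day 7 libraries. Rab19 and Rab40b passed only with their day 7 and day 30 libraries together, and Rab42 and Rab26 only with those of days 30 and 90. The distance of all these members from a day at or near 0 follows in part from the choice of members. Rab3b had 17 reads at day 7, 97 at day 30 and 0 at day 90, which put day 90 at least 30.6-fold below day 30 on read shares (limma adjusted p = 0.953). Rab37, a RAB of secretory granules, had 0 reads at day 7, 90 at day 30 and 33 at day 90, which put day 30 at least 23.9-fold above day 7 (limma adjusted p = 0.758). Of the others, Rab40c, which is part of a ubiquitin ligase, was highest at 50.05 ± 28.5, 47.3 ± 29.1 and 51.8 ± 20.0 CPM. Its relative Rab40b had 58 reads at day 7, 21 at day 30 and 0 at day 90, at least 22.9-fold below day 7 over the group (limma adjusted p = 0.711), but day 7 replicate 4 also had 0 reads, so the days overlapped. These genes were at levels where the 95% intervals of the 17 members under 10 CPM reached 1.41 to 1.97 log2 units to either side.

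Set against each other by role, the endolysosomal RABs centred near 0 at day 30 and the Golgi and secretory RABs above it. At day 30 against day 7, 13 endolysosomal RABs were higher and 14 lower, with a median difference of -0.03, while 16 Golgi and secretory RABs were higher and 6 lower, with a median of 0.38. Among the higher, Rab37 (1.80) and Rab3b (1.24) passed the filter only through day 30, and Rab26 (1.10) only with days 30 and 90 together. Among the lower, Rab19 (-1.20) passed only with days 7 and 30 together, and the endolysosomal Rab38 (-1.57) only through day 7. The part of the filter in these counts and medians was not tested. Over all genes tested the median was 0.04 and 46.8% were lower. All 14 endothelial and pericyte markers were lower at day 30 than at day 7 (median -0.42, none called), and their part in the class medians was not tested. The Golgi and secretory median was 0.18 without day 30 replicate 4, the library with the highest neuronal sum, and between 0.18 and 0.43 over the libraries left out in turn. At day 90 against day 7 the medians were -0.13 for endolysosomal and 0.06 for Golgi and secretory RABs, against -0.02 over all genes, and without day 90 replicate 1 the endolysosomal median was 0.0054. At day 90 against day 30 they were -0.09 and -0.25, against -0.06 over all genes. Leaving out replicate 3 of day 30 gave an endolysosomal median of -0.20, and leaving out replicate 4 gave 0.017. The difference between the classes was not tested, since members were placed with these data known.

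**Figure D3:**
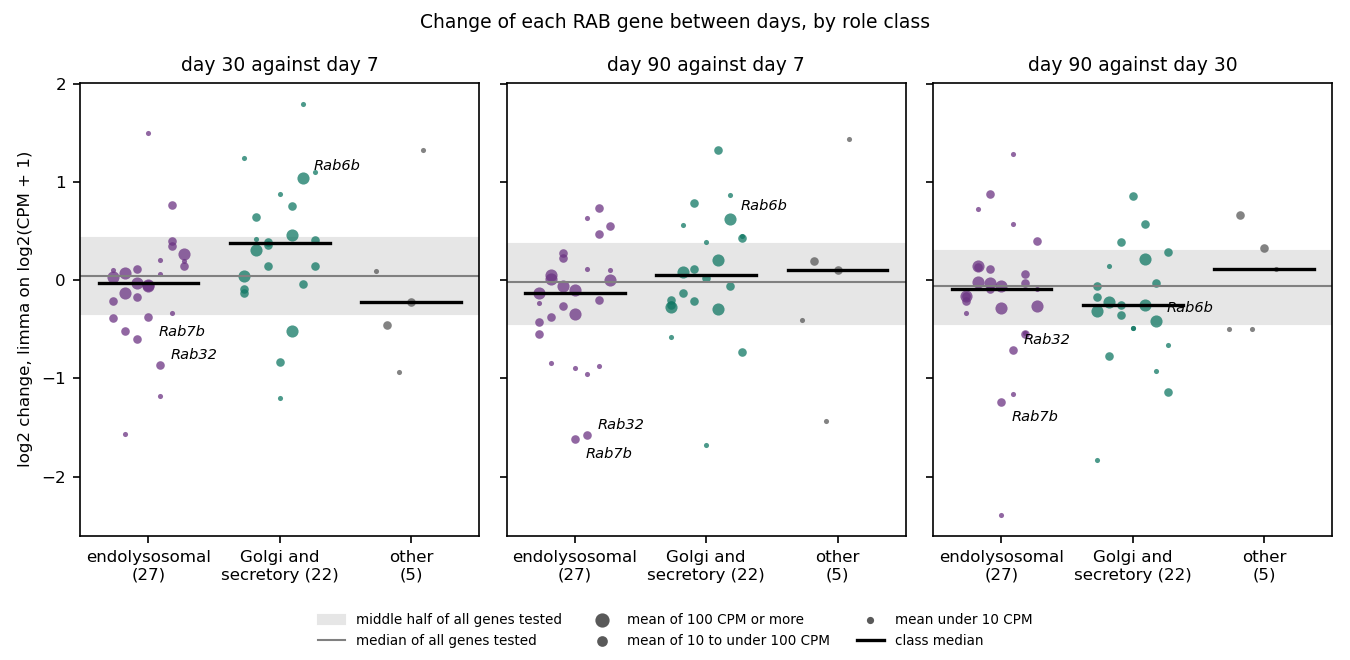
Fitted log2 difference of each RAB gene in the 3 comparisons, by role class; point size gives the mean level, black lines the class medians, and grey the median and the 25th to 75th percentile of all genes tested. The Golgi and secretory median stands at 0.38 at day 30 against day 7, and Rab7b and Rab32 are the lowest endolysosomal genes at day 90 against day 7. The Golgi and secretory class includes Rab37 and Rab3b, which passed the filter only through day 30.

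In summed CPM the endolysosomal RABs gave 2433, 2423 and 2318 at day 7, 2222, 2152 and 2479 at day 30, and 2045, 2144 and 2193 at day 90. Each day 90 sum lay below each day 7 sum. The Golgi and secretory RABs gave 1232, 1047 and 1101 CPM at day 7, 1201, 1374 and 1270.1 CPM at day 30, and 1338, 1106 and 1068 CPM at day 90, and here the days overlapped. Endolysosomal RABs made up 66.5 ± 1.97% of RAB CPM at day 7, 62.8 ± 2.69% at day 30 and 62.9 ± 3.38% at day 90. The lowest share, 59.1%, was that of day 90 replicate 1.

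**Figure D4:**
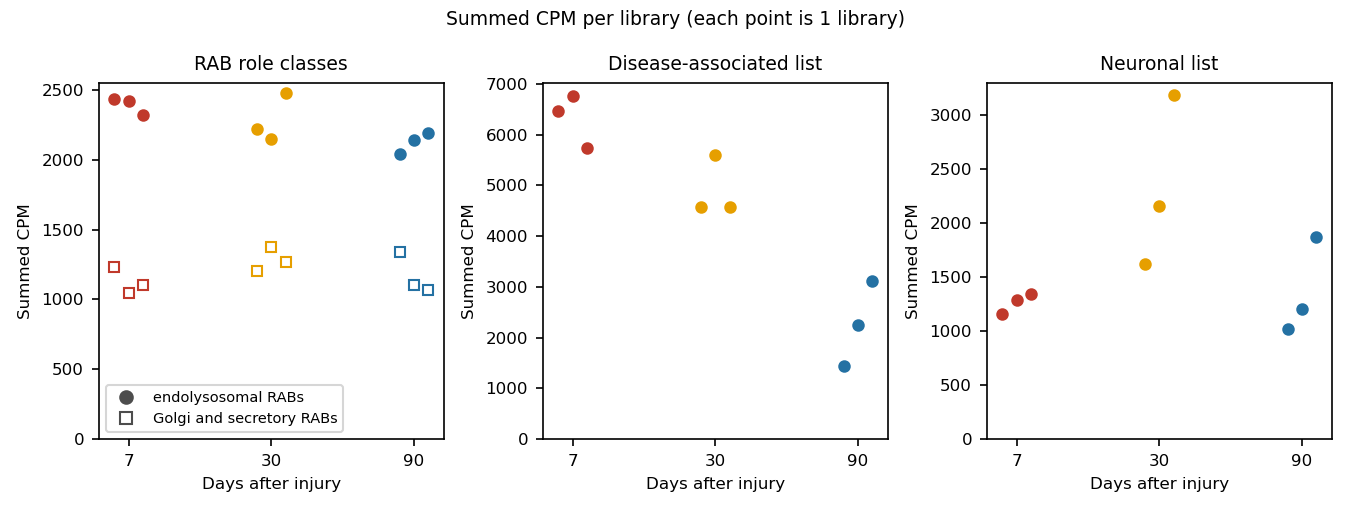
Summed CPM per library of the 2 RAB role classes (left), of the disease-associated microglia markers (middle) and of the neuronal markers (right) by day after injury; each point is 1 library. The disease-associated sum is lowest at day 90, between 1434 and 3108 CPM. The neuronal sum has its highest mean at day 30, but the libraries of days 30 and 90 overlap. The RAB classes stay between 1047 and 2479 CPM.

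Counted over all 54 members at an unadjusted p under 0.05, the RAB family stood near the background of all genes in each comparison. Against day 7, 42.6% of members were lower at day 30 and 51.9% at day 90, against 46.8% and 51.6% of all genes. At day 30 against day 7 no member passed in limma, edgeR or DESeq2, against 0.0% of all genes in limma, and at an unadjusted p under 0.05 were Rab6b and Rab37 (higher, 3.56% of all genes) and Rab32 and Rab1a (lower, 2.68%), 4 of 54 members against 6.24% of all genes. Libraries of the 2 days did not overlap for 10 of 54 members, against 12.6% of all genes. Of these members 6 were higher (Rab6a, Rab6b, Rab33b, Rab39b, Rab3a and Rab37, against 6.85% of all genes) and 4 lower (Rab22a, Rab32, Rab9 and Rab38, against 5.74%). Among them Rab37 and Rab38 passed the filter only through the day on which they were high. At day 90 against day 7 limma called Rab7b, DESeq2 called Rab7b and Rab32, and edgeR called neither. Over all genes limma called 37 of 15041 (0.246%), edgeR 22 and DESeq2 130. At an unadjusted p under 0.05 were Rab6b and Rab33b (higher, 3.48% of all genes) and Rab7b and Rab32 (lower, 4.25%), against 7.73% of all genes together. Libraries did not overlap for 8 of 54 members, against 11.7% of all genes. Rab33b, Rab42 and Rab8a were higher (5.4% of all genes) and Rab7b, Rab32, Rab14, Rab22a and Rab19 lower (6.27%). Rab42 was set apart only by 2 reads in day 90 replicate 4 against 1 read in day 7 replicate 2, both under the floor of 3 reads. For Rab42 and Rab19 the distance also follows in part from the filter, as given above.

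At day 90 against day 30 no member passed in limma, edgeR or DESeq2, against 0.0532% of all genes in limma. Of the 54 members 36 were lower and 18 higher (median -0.16), which is 66.7% lower against 55.0% of all genes (median -0.06). Rab7b, Rab39b and Rab3b, all lower, had an unadjusted p under 0.05, against 5.03% of all genes (3.44% lower and 1.59% higher). Libraries did not overlap for Rab9 (higher, 3.75% of all genes) and for Rab14, Rab7b, Rab39b, Rab37 and Rab3b (lower, 6.18%), against 9.93% of all genes together. Of these Rab37 and Rab3b passed the filter only through day 30, where they were high. In limma's F-test over the 3 days 0 members passed, against 26 of all genes (0.173%). In edgeR 0 members passed among 16 genes called, and in DESeq2 1, Rab6b, among 53. Rab6b, Rab7b, Rab32 and Rab39b had an unadjusted p under 0.05 in limma's F-test, against 6.87% of all genes. The 12 members that averaged at least 100 CPM bound the size of differences best. Their differences lay between -0.52 and 1.04 at day 30 and between -0.34 and 0.62 at day 90 against day 7, and their 95% intervals at day 90 reached 0.39 to 0.57 to either side.

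The proteins that load, switch and read RABs showed no gene past the threshold in any comparison. Of the 161 tested, none was called by limma, edgeR or DESeq2, and 7 or 8 had an unadjusted p under 0.05 in each limma comparison, against 5.03% to 7.73% of all genes. Of the 8 genes for lipid attachment and recycling, 3 were higher and 5 lower at day 30 than at day 7 (median -0.06), and Rabggta, the alpha subunit of the enzyme that adds the lipids, had the smallest F-test p, at 9.22 ± 2.62, 10.4 ± 8.003 and 18.5 ± 9.18 CPM. Of 36 exchange factor genes tested, whose products activate RABs, 24 were higher and 12 lower at day 30 than at day 7 (median 0.29), which is 33.3% lower against 46.8% of all genes. At day 90 against day 30, 25 were lower (median -0.19), 69.4% against 55.0% of all genes. Among these Dennd3, the exchange factor of Rab12, had the smallest p, at 13.5 ± 8.04, 18.7 ± 4.25 and 3.31 ± 2.75 CPM (limma F-test adjusted p = 0.481). Of 38 genes of TBC proteins, most of which switch RABs off, 27 were higher and 11 lower at day 30 than at day 7 (median 0.21), 28.9% lower against the same 46.8%. Tbc1d1, which acts on Rab10 in glucose transporter traffic, led them at 40.1 ± 9.66, 76.2 ± 19.7 and 54.7 ± 10.5 CPM (limma F-test adjusted p = 0.653).

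The effectors, which bind active RABs, had medians near 0. For the 44 endolysosomal effectors they were 0.04 at day 30 and -0.0025 at day 90, both relative to day 7. Rbsn, the early endosome tether rabenosyn that binds RAB5 and RAB4 proteins, had the smallest p at 18.3 ± 5.91, 27.9 ± 10.2 and 7.42 ± 4.96 CPM (limma F-test adjusted p = 0.481). For the 29 Golgi and secretory effectors tested of 33 listed they were 0.02 and -0.12. Rims1, a RAB3 effector of synaptic release sites, led them at 14.6 ± 2.46, 22.6 ± 5.55 and 8.40 ± 8.68 CPM (limma F-test adjusted p = 0.649), and it was at 0 in day 90 replicate 1. Of 6 genes around LRRK2, the kinase that phosphorylates RAB8, RAB10, RAB12 and RAB29 proteins, 4 were lower at day 90 than at day 7 (median -0.48), against 51.6% of all genes. Vps13c, a lipid transporter that binds RAB7, had the smallest p there, at 40.5 ± 16.03, 24.2 ± 6.61 and 25.7 ± 12.5 CPM (limma F-test adjusted p = 0.858).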

How the data were processed

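The authors deposited a table of CPM, read counts scaled to 1000000 per library, for 49671 Ensembl genes in 9 libraries. Per the labels' protocols, RNA was extracted with PicoPure kits and made into QuantSeq 3-prime libraries; per the submitters' processing notes, bcl2fastq, STAR, HTSeq and genome build mm10 were used (versions, annotation release and strand: not given in the sources used here). Without the strand setting, reads of overlapping genes cannot be told apart. Dividing each deposited column by its smallest CPM step gave whole read counts for 100% of nonzero values (tolerance 1e-06).

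The filter asked for 1 CPM or more in 3 or more of the 9 libraries, and log2(CPM + 1) was fitted with limma 3.58.1 (R 4.3.3; lmFit, eBayes with trend), 1 mean per day over all 9 libraries, with 6 residual and 28.4 prior degrees of freedom. The 3 pairwise contrasts and the F-test were two-sided and adjusted by Benjamini-Hochberg over all 15041 genes, with a threshold of 0.05. The limma p-values set differences between days against the spread between the 3 mice of a day, drawn toward the trend over all genes. Floors of 3 reads stand for counting error alone, because no molecular identifiers are stated for these reads.

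Members and lists were chosen with earlier results of these data known. Named by rule were members past the threshold, the 5 smallest p of each contrast, the RAB3, RAB5, RAB6 and RAB7 paralogs present among the members, Rab32 and Rab38, the highest member of each role and the smallest F-test p of each regulator list. The settings tried besides were a pseudocount of 0.1 or 5 CPM, a filter of 10 CPM or none, median-of-ratios and quantile scaling, a robust spread, a replicate block, edgeR 4.0.16 (quasi-likelihood) and DESeq2 1.42.0 on whole reads, and each library left out. The fit was tested on simulated data. Positions and coding sequences came from GENCODE M21 (GRCm38) and promoters from RefSeq (GRCm38.p6).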

Additional observations from a re-analysis of the deposited data

How the results depend on the processing

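The members called at day 90 against day 7 (1 in limma) were 0 with a pseudocount of 0.1 CPM, without a filter, with a replicate block and with edgeR, 2 with DESeq2, and 0 to 1 with each library left out, 0 for day 7 replicates 2 and 4, day 30 replicate 4 and day 90 replicate 3. In the F-test (0 members) they were 1 with a robust spread (Rab7b), 1 with DESeq2 (Rab6b) and 0 to 1 with libraries left out, with 1 on leaving out day 7 replicate 3, day 30 replicate 2 or day 90 replicate 4. In the other comparisons no alternative called a member. Over all genes, the 37 calls at day 90 against day 7 were 1 without a filter, 22 with edgeR and 130 with DESeq2, and 18 to 62 with libraries left out: 18 without day 7 replicate 2, 24 without day 7 replicate 3 or 4 or day 90 replicate 3, and 62 without day 90 replicate 1. The 8 calls at day 90 against day 30 were 0 without a filter and 27 with DESeq2 (4 to 18 with libraries left out, the fewest without day 30 replicate 3, 5 without day 30 replicate 2 or 4, the most without day 90 replicate 4). The 0 calls at day 30 against day 7 were 3 with a pseudocount of 5 CPM, 2 with quantile normalization, 10 with the replicate block and 34 with DESeq2 (0 to 8 with libraries left out: 8 for day 90 replicate 1, 2 for day 7 replicate 3 and 1 for day 7 replicate 4). The 26 F-test calls were 15 with a pseudocount of 0.1 CPM, 0 without a filter, 16 with edgeR and 53 with DESeq2 (11 to 52 with libraries left out: 11, 15 and 13 without day 7 replicates 2, 3 and 4, and 52 without day 90 replicate 1).

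With libraries left out, the endolysosomal median lay between -0.14 and -0.030 at day 30 and between -0.21 and 0.0054 at day 90 against day 7, and between -0.20 and 0.017 at day 90 against day 30. The Golgi and secretory medians lay between 0.18 and 0.43, between -0.09 and 0.17 and between -0.35 and -0.11. Putting members with no read on a day at their bound of 3 reads moved no class median. The replicate block gave endolysosomal medians of -0.012 at day 90 against day 7 and 0.022 at day 90 against day 30, and took the Rab7b call to an adjusted p of 0.0584 in limma. The numbers did not pair the samples: deviations of same-numbered libraries correlated at -0.0446 to 0.0389 (7 pairs), and those of differently numbered ones at -0.0578 to 0.0409 (20 pairs), so the block result does not bear on the size of an effect. The causes of these differences were not tested. The differences of the 5 members with the smallest p in each comparison kept their sign in every alternative that gave a value. The other members' differences were not recomputed one by one. Members under 10 CPM had intervals of 1.41 log2 units or more to either side at day 90 against day 7.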

Other observations

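The promoters of the family were searched for short motifs on both strands, in RefSeq windows of GRCm38.p6 that run from 250 bases before to 50 after each start. Of the members, 45 had 57 such windows among 32851 in all. The rest, Rab7b among them, had no window and were not searched. CACGTG is the core of the element bound by the lysosomal regulator TFEB and by other factors of its class. It was in 6 of the 57 RAB windows, against 7.15% of all windows. The 6 windows were those of Rab5a, Rab20, Rab21, Rab23, Rab24 and Rab27a. These genes did not share an order of days: Rab5a averaged 7.42, 8.15 and 7.52 CPM, Rab21 averaged 24.4, 25.9 and 35.1 CPM, and Rab24 averaged 88.1, 59.6 and 65.6 CPM at days 7, 30 and 90, and none passed the test in limma. CATGTG was in 6 of the 57 RAB windows, of 5 genes, against 14.2% of all windows. GAGGAAGT, a motif of the myeloid factor PU.1, was in 2 of the 57, those of Rab2b and Rab32, against 3.20% of all windows. TGACTCA was in 3 of the 57, those of Rab15, Rab34 and Rab39b, against 5.202% of all windows. GCCCCGCCC was in 17 of the 57, of 17 genes, against 11.0% of all windows. A match describes letters in a window, not binding. The genes listed here for a motif were named for that match, outside the rule for named genes.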
